A study of Mus musculus with 8 samples.

Results

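Transcripts of the solute carrier (Slc) genes were examined in MPC-5 podocytes, and their levels in RNA eluted from IgG beads were compared with those in the input extract. The Slc transcripts were taken as the probesets whose gene symbol is Slc, a family number, the letter a and a member number, where 3 or all 4 eluate arrays reached a signal of 100. Of 557 such probesets for 315 genes, among 46643 on the array, 155 for 127 genes passed this filter. Related genes with another symbol, such as the other Slc35 subfamilies (Slc35b to Slc35f), were not included.

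MPC-5 is a conditionally immortalized mouse podocyte line that carries a temperature-sensitive SV40 T antigen, grows at 33°C and was differentiated here for 14 days at 37°C. By their labels all samples came from cells stably transfected with a CMV promoter vector for WT1(+KTS) bearing a tandem affinity tag, so no group was without it. Both Wt1 probesets measured 51.5 to 91.2 over the arrays, below the filter used here, so the signal does not show this construct, and whether those probes can read its transcript was not tested. The 4 eluates hold RNA that was retained with IgG Sepharose and recovered in the TEV protease step, and the 4 inputs hold RNA of extract kept without beads. The study reported that cleavage by TEV protease was not required, as Myh10 mRNA was also enriched with albumin in its place. According to the design text, the retention of mRNA in this series did not depend on the tagged protein. From each sample 650 ng of RNA was labelled and hybridised to an Illumina Sentrix-6 mouse array, and the deposited values are log2 signals.

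Solute carriers are membrane proteins that move ions and small molecules across lipid bilayers, most of them through several membrane-spanning helices. Most are made on ribosomes at the endoplasmic reticulum, whereas the Slc25 carriers of the inner mitochondrial membrane are made in the cytosol and then imported. In the kidney the family is best known from the tubule, where its members reabsorb glucose, amino acids, phosphate and salt. The podocyte, the epithelial cell that covers the glomerular capillaries with interlocking foot processes, is not a reabsorbing cell.

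The arrays fell into 2 sets that cut across the fractions. The leading component of the deviations from the fraction means held 74.71% of their variance and separated inputs 1 and 2 with eluates 1 and 4 (array set 1) from inputs 3 and 4 with eluates 2 and 3 (array set 2). The labels and methods name no feature that splits the arrays this way, and same-numbered arrays fell in the same set only for replicates 1 and 3. Besides the main limma fit, with the replicate number as the block, a fit with the array set as the block is therefore given. Median signals over all probesets were 64.9 to 84.3 in the inputs and 71.0 to 84.6 in the eluates. Nothing in the sources used here says that replicates were separate cultures, and p-values then measure the spread between these arrays, which may be technical.

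The chosen podocyte markers, not all of which are particular to podocytes, were measured in part. Of 9 podocyte markers on the array, 5 passed the signal filter (Actn4, Nes, Podxl, Synpo and Vim), whereas Wt1, Cd2ap and Ptpro stayed below 100 on every array and Nphs1 measured 86.2 to 114 in the inputs. The summed signal of the podocyte list was 23062 to 39085 in the inputs and 44734 to 77874 in the eluates, without overlap. Vim held much of the input sum, at 14783 to 22683, and Actn4 measured 2774 to 4096 in the inputs and 14783 to 21839 in the eluates. Among members of the list the crosslinker Actn4 was higher in the eluates by 2.32 on the log2 scale and the intermediate filament gene Nes by 2.29 (limma adjusted p = 0.000505 and 0.000901). Synpo at 0.81, Vim at 0.34 and Podxl at 0.17 did not pass in the main fit (0.467, 0.678 and 0.857), and a dimmer probeset of Synpo stood at -0.20. Of a chosen list of 15 tubule transporters, all on the array, only Slc6a19, a neutral amino acid carrier of the proximal tubule, passed. Its passing probeset measured only 114 to 142 in the inputs and 114 to 168 in the eluates, and its other probeset did not pass. Those 15 summed to 986 to 1293 in the inputs and 1078 to 1358 in the eluates. Those that reabsorb salt (Slc12a1, Slc12a3), phosphate (Slc34a1) and glucose (Slc5a2) did not pass, nor did the organic anion carrier Slc22a6. The list does not hold every tubule transporter, and outside it Slc5a12 (138 to 189 over the arrays) and Slc22a7 (146 to 194) passed. Among other tubule genes Aqp1 and Lrp2 passed and Umod, Aqp2 and Cubn did not.

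The transcripts detected covered 42 of 50 Slc families. The share of Slc probesets that passed was 27.8%, against 29.8% of all probesets, and the share of Slc genes was 40.3%, against 44.7% of all named genes. Detection ran unevenly over the transported substrates. For nucleotide sugars 4 of 5 Slc35a genes passed, for nucleosides 5 of 7, for metals 19 of 31 and for the mitochondrial carriers 26 of 45. For amino acids 19 of 58 genes passed, for ion exchange 13 of 40, for sugars 8 of 29, for organic ions, peptides and vitamins 13 of 39, and for monocarboxylates, phosphate and sulfate 8 of 31.

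Families detected in full included the equilibrative nucleoside transporters (Slc29, 4 of 4 genes), the folate and thiamine transporters (Slc19, 3 of 3), the sodium-phosphate cotransporters Slc20a1 and Slc20a2, the copper transporters Slc31a1 and Slc31a2, and the iron exporter ferroportin (Slc40a1). Some lay near the filter, such as Slc29a4, at 69.0 in input 4 and 91.9 in eluate 3, and Slc19a3, at 101 to 132. Of the zinc importers of the Slc39 family, 8 of 13 genes passed. No gene passed in family 34, which holds the tubular phosphate cotransporters, or in the neurotransmitter families 18 (vesicular amine carriers) and 32 (the vesicular GABA carrier). Of the organic ion transporters of family 22, which hold the drug carriers of the tubule, 3 of 21 passed (Slc22a5, Slc22a7 and Slc22a23), and of family 5, which holds the sodium-glucose cotransporters, 2 of 10 (Slc5a6 and Slc5a12).

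**Figure D1:**
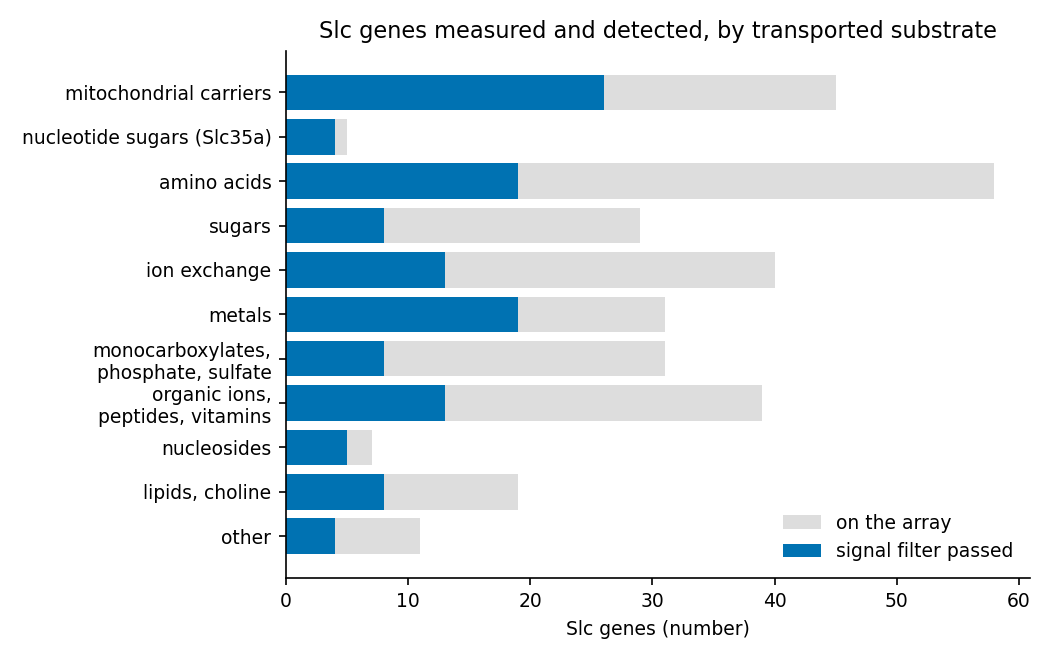
Number of Slc genes on the array (whole bar) and with at least 1 probeset past the signal filter (blue part), for each group of transported substrates. The blue part is 26 of 45 genes for the mitochondrial carriers and 19 of 58 for amino acids.

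The filter uses the eluates, and it kept nearly the same probesets as the inputs would. On the inputs 163 Slc probesets passed, 9 of them there only, while 1 passed on the eluates only, a dim probeset of Slc7a11. Just inside the filter lay Slc47a1, Slc17a9 and Slc28a3, whose deciding eluate, the lowest but 1, measured 100, 102 and 103, and just outside it a second probeset of Slc4a8 and those of Slc30a4 and Slc39a4 at 98.9, 98.6 and 98.5. The 402 probesets that did not pass had log2 fold changes between -0.30 and 0.19, and none exceeded a signal of 217 on any array. Signal was at least 100 on all 8 arrays for 135 of the 155 that passed.

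Eluate and input levels of the Slc transcripts lay close together. With the replicate block, 0 of 155 probesets passed an adjusted p of 0.15 in limma with Benjamini-Hochberg adjustment, the false discovery rate the study used, against 1.12% of all tested probesets (1.09% higher and 0.0288% lower in the eluates). The lowest adjusted p among them was 0.286. At an unadjusted p under 0.05 there were 3 (Slc25a25, Slc35a3 and Slc38a9), or 1.94%, against 10.1% of all tested probesets. The largest differences were 1.49-fold higher in the eluates (Slc25a25) and 1.48-fold lower (Slc35a3), so none reached 2-fold, which 0.719% of all tested probesets did. Differences of 1.25-fold or more were fitted for 11 Slc probesets, or 7.1%, against 18.4% of all.

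The intervals give how large a difference these arrays could have missed. For 151 of 155 Slc probesets the 95% interval of the difference lay within 2-fold in either direction, which held for 94.3% of all tested probesets. The exceptions were Slc7a11, Slc40a1, Slc25a25 and Slc52a3. Within 1.5-fold lay 94 of the 155, or 60.6%, against 49.1% of all, and for the others the interval reached beyond that size.

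With the array set as the block the standard errors were smaller, with a median of 0.118 against 0.192 on the log2 scale, and 30 of 155 probesets passed the same cutoff, or 19.4%, against 29.7% of all tested probesets. Of these 30, which belong to 26 genes, 11 were higher in the eluates (7.1%, against 14.4% of all) and 19 lower (12.3%, against 15.2% of all). The interval lay within 1.5-fold for 144, or 92.9%, against 83.5% of all. The array sets were found in the same data, and each fraction has 2 arrays per set. Only 2 probesets higher in the eluates (Slc25a12 and Slc25a25) and 2 lower (Slc35a3 and a probeset of Slc38a9) passed with each of the 8 arrays left out in turn, against 7.53% and 6.83% of all tested probesets. The counts went down to 2 higher without eluate 2 and to 5 lower without input 3.

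The median log2 fold change of the Slc probesets was -0.002, against -0.007 for all tested probesets, with 74 of 155 above zero. Their spread was narrower, with 5th and 95th percentiles of -0.31 and 0.28 against -0.40 and 0.46. The highest value among all tested probesets was 3.83, and the highest Slc value was 0.58. The median was 0.019 for the 60 Slc probesets with a mean input signal under 200, -0.019 for the 59 from 200 to 1000 and -0.040 for the 36 at 1000 or more, against 0.008, -0.004 and -0.041 for all tested probesets in the same ranges.

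**Figure D2:**
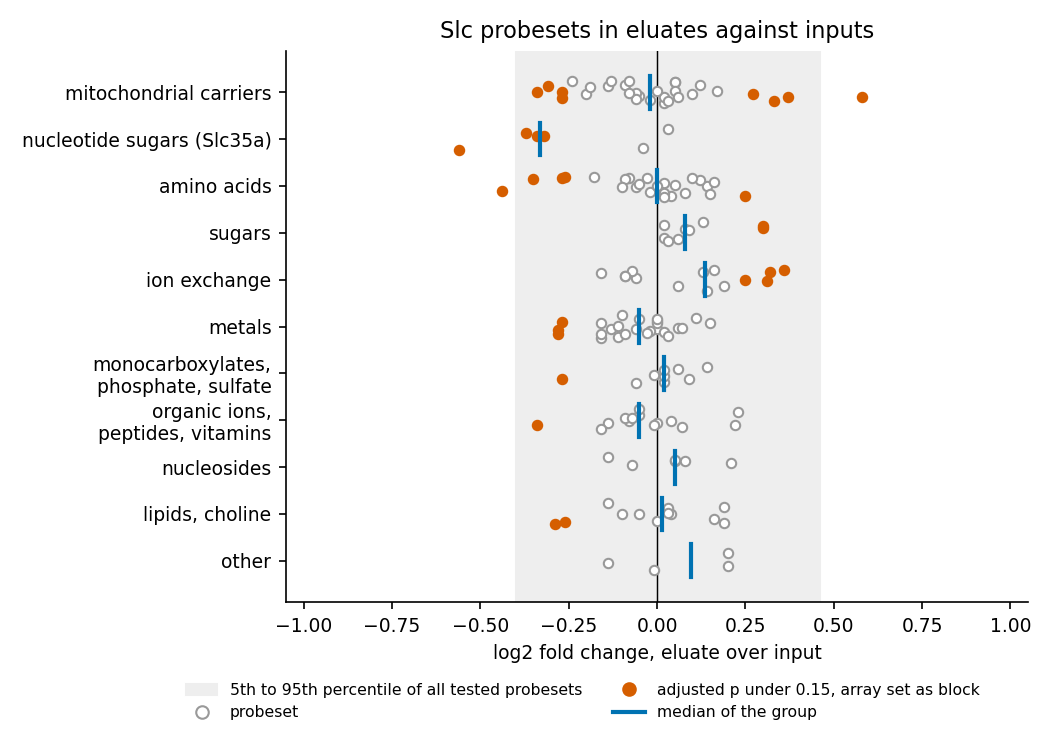
Log2 fold change, eluate over input, of each of the 155 Slc probesets by transported substrate, with group medians (blue bars), probesets past an adjusted p of 0.15 with the array set as the block (filled) and the 5th to 95th percentile of all tested probesets (grey). Slc25a25 at 0.58, Slc35a3 at -0.56 and a probeset of Slc38a9 at -0.44 lie outside the grey band.

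Other lists of membrane proteins were set beside the Slc genes. The 143 probesets of Tmem genes, which are named for a transmembrane segment alone and need not span the membrane several times, had a median of -0.097 with 40 above zero, and with the array set as the block 3 (2.1%) were higher and 31 (21.7%) lower in the eluates, against 14.4% and 15.2% of all tested probesets. The 16 probesets of ABC transporters had a median of 0.052 and the 12 of tetraspanins -0.057. Within the Slc genes, the 31 probesets of the Slc25 family had a median of -0.021 and the 124 others -0.001. The Slc25 family is grouped here as mitochondrial carriers by family number alone. These medians are descriptions, and no difference between lists was tested.

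**Figure D3:**
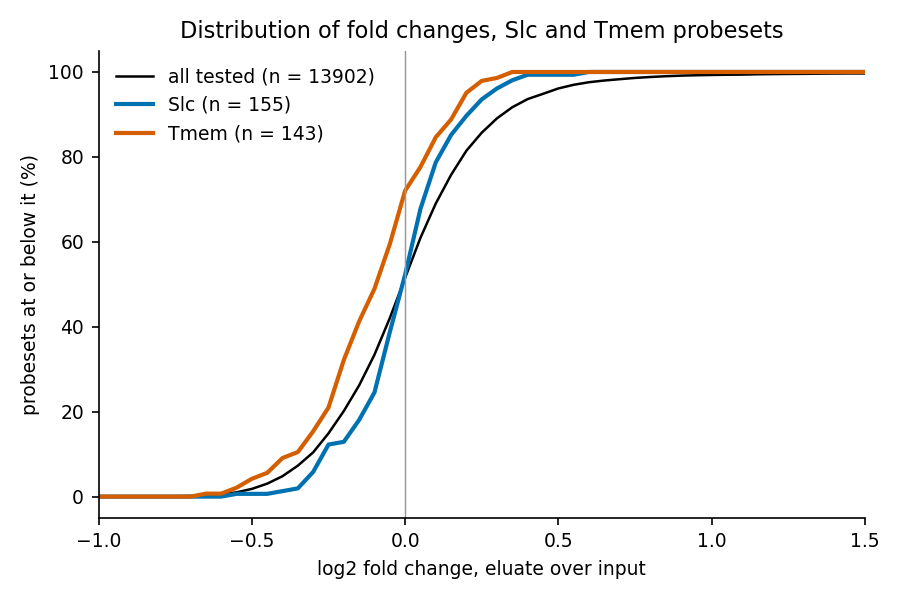
Cumulative share of probesets (percent) at or below each log2 fold change, eluate over input, for all 13902 tested probesets, the 155 Slc and the 143 Tmem probesets. The Slc curve crosses zero beside the curve of all probesets, with a median of -0.002 against -0.007, and the Tmem curve lies to its left, with a median of -0.097.

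Among the mitochondrial carriers, 4 of 31 probesets were higher and 4 lower in the eluates past the cutoff with the array set as the block, or 12.9% each way, close to the 14.4% and 15.2% of all tested probesets. Slc25a25, a calcium-regulated carrier that exchanges ATP-Mg for phosphate, had signals of 308, 349, 233 and 206 in inputs 1 to 4 and 572, 359, 263 and 473 in eluates 1 to 4. Inputs and eluates overlapped, but within either array set both eluates lay above both inputs. Its log2 fold change was 0.58 (SE 0.22, n = 4 per fraction) with a limma adjusted p of 0.416 in the main fit and 0.000854 with the array set as the block.

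Slc25a12, the aspartate-glutamate carrier of the malate-aspartate shuttle, measured 383, 445, 417 and 369 in the inputs and 586, 486, 446 and 583 in the eluates. It was the only Slc probeset with all 4 eluates above all 4 inputs (0.645%, against 4.83% of all tested probesets), although eluate 3 at 446 barely exceeded input 2 at 445. The log2 fold change was 0.37 (SE 0.18, n = 4 per fraction, limma adjusted p = 0.534, and 0.0201 with the array set as the block), and a second, dimmer probeset of the gene gave -0.02. For Slc25a3, which brings phosphate into the matrix, the inputs measured 4805, 8107, 5634 and 5276 and the eluates 8217, 7347, 6252 and 7668. Only input 2 lay among the eluates, and the difference of 0.33 had limma adjusted p-values of 0.641 and 0.0693 in the same order.

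Slc25a5, an ADP/ATP translocase, measured 12554, 11477, 15461 and 13482 in the inputs and 13337, 16199, 13085 and 14895 in the eluates, with partial overlap. Its interval with the array set as the block ran from -0.12 to 0.36. Slc25a39, the mitochondrial glutathione carrier, spanned 7475 to 11512 in the inputs and 7090 to 11607 in the eluates. The 4 lower carriers were Slc25a30 at -0.34, Slc25a45 at -0.31, the ornithine carrier Slc25a15 at -0.27 and the pyrimidine nucleotide carrier Slc25a36 at -0.27, with limma adjusted p-values of 0.0661, 0.059, 0.122 and 0.143 with the array set as the block and of 0.617 to 0.778 in the main fit. Dimmer probesets gave -0.24 for Slc25a30 and -0.09 for Slc25a15, neither past the cutoff with the array set as the block. Arrays centred on their medians ended the calls of Slc25a30 (0.165) and Slc25a36 (0.186) with that block. The fourth higher carrier, the dicarboxylate carrier Slc25a10 at 0.27, passed at 0.129 (0.80 in the main fit) and missed the cutoff when quantile normalization was added, at 0.15.

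The nucleotide sugar carriers bring activated sugars into the Golgi for glycosylation. Slc35a3, the UDP-N-acetylglucosamine carrier, measured 1860, 2283, 2781 and 2273 in the inputs and 1203, 1738, 1657 and 1627 in the eluates, so every eluate lay below every input. The log2 fold change was -0.56 (SE 0.16, n = 4 per fraction) with a limma adjusted p of 0.286 in the main fit and 0.00106 with the array set as the block, and it was -0.56 within array set 1 and -0.57 within array set 2. A dimmer probeset of the gene, at 192, 228, 234 and 198 against 146, 189, 168 and 181, gave -0.32, also without overlap.

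The other nucleotide sugar carriers differed among themselves. Slc35a1, the CMP-sialic acid carrier, measured 1033, 1550, 1059 and 1064 in the inputs and 940, 794, 799 and 1092 in the eluates, with eluate 4 among the inputs. Its log2 fold change of -0.37 (SE 0.20) had limma adjusted p-values of 0.607 and, with the array set as the block, 0.0314, and its second probeset gave -0.34. Slc35a4 overlapped fully at 2909, 3209, 3572 and 3176 against 2917, 3333, 2922 and 3299, and its interval with the array set as the block ran from -0.28 to 0.19. Slc35a2, the UDP-galactose carrier, stood at 0.03. Over the 6 probesets the median was -0.33, with 4 lower and 0 higher past the cutoff with the array set as the block, or 66.7% lower against 15.2% of all tested probesets. The 4 belong to Slc35a1 and Slc35a3 alone, each read by 2 probesets.

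The amino acid transporters held 25 probesets with a median of -0.001, of which 1 (4%) was higher and 4 (16%) lower with the array set as the block, against 14.4% and 15.2% of all tested probesets. Slc38a2 (SNAT2), a sodium-coupled carrier of small neutral amino acids, measured 1381, 1566, 1503 and 1425 in the inputs and 885, 1281, 1331 and 1176 in the eluates. The fractions did not overlap, and the log2 fold change was -0.35 (SE 0.16, n = 4 per fraction, limma adjusted p = 0.543, and 0.0411 with the array set as the block). A probeset of Slc38a9, the lysosomal arginine transporter that reports to mTORC1, lay near the filter at 142, 136, 158 and 149 against 93.1, 107, 128 and 106. It too did not overlap, at -0.44 (SE 0.16, limma adjusted p = 0.388, and 0.00619 with the array set as the block), while the brighter probeset of that gene gave -0.27. Together with the 2 probesets of Slc35a3 these made 4 Slc probesets with every eluate below every input, or 2.58%, against 5.01% of all tested probesets.

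Slc7a5 (LAT1), which exchanges large neutral amino acids, measured 8078, 8484, 10458 and 10106 in the inputs and 7963, 9573, 8859 and 8648 in the eluates, with a log2 fold change of -0.08 and an interval of -0.31 to 0.15 with the array set as the block. Its partner Slc3a2, the 4F2 heavy chain, which spans the membrane once only and is no carrier by itself, measured 118 to 209 in the inputs and 138 to 160 in the eluates. The creatine transporter Slc6a8 spanned 2608 to 4268 and 2528 to 3985, and the glutamine and neutral amino acid exchanger Slc1a5 spanned 705 to 2209 and 829 to 2254. For none of these 4 did the fractions separate, and the wide range of Slc1a5 followed the array sets.

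The taurine transporter Slc6a6 was read differently by its probesets. The brighter measured 5689, 6522, 3314 and 2953 in the inputs and 6888, 3741, 3723 and 7501 in the eluates, a log2 fold change of 0.25, and a dimmer one 285, 246, 207 and 168 against 194, 149, 179 and 229, a log2 fold change of -0.26. With the array set as the block both passed the cutoff in opposite directions, with limma adjusted p-values of 0.13 and 0.129, against 0.894 and 0.789 in the main fit. It was the only one of 24 genes with several probesets whose values differed by 0.5 or more. Among those 24 genes the median difference was 0.17, and the sign was the same in 14 and opposite in 10.

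The sugar transporter group, grouped by family and including the vitamin carrier Slc5a6, held 9 probesets with a median of 0.076, all 9 above zero and 2 of them (22.2%) higher past the cutoff with the array set as the block, against 14.4% of all tested probesets. Slc2a1 (GLUT1), the basal glucose transporter, measured 1312, 1471, 770 and 705 in the inputs and 1763, 967, 850 and 1647 in the eluates. The fractions overlapped, because each held a high and a low pair of arrays, and within array sets 1 and 2 the log2 fold changes were 0.29 and 0.30. The limma adjusted p was 0.813 in the main fit and 0.0643 with the array set as the block. Without replicate 4 the main difference of Slc2a1 was -0.01. Slc45a4 measured 1161, 1240, 1018 and 903 against 1396, 1300, 1172 and 1427, a log2 fold change of 0.30 with adjusted p-values of 0.629 and 0.0614, and its dimmer probeset gave 0.13.

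The ion exchange group held 14 probesets with a median of 0.138, of which 4 (28.6%) were higher and 0 lower with the array set as the block, against 14.4% and 15.2% of all tested probesets. They were the anion exchanger Slc4a3 at 0.36, Slc4a11 at 0.32, the sodium-driven chloride-bicarbonate exchanger Slc4a8 at 0.31 and the potassium-chloride cotransporter Slc12a4 at 0.25, with limma adjusted p-values of 0.0384, 0.0463, 0.0708 and 0.122, against 0.626, 0.66, 0.836 and 0.819 in the main fit. The Slc4a3 probeset measured 180, 175, 169 and 118 in the inputs and 197, 200, 176 and 242 in the eluates, so only eluate 3 lay among the inputs. Slc12a4 measured 414, 479, 313 and 291 against 531, 354, 335 and 578, again as a high and a low pair within each fraction. The sodium-potassium-chloride cotransporter Slc12a2 overlapped, at 1909 to 2737 against 2131 to 2491.

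**Figure D4:**
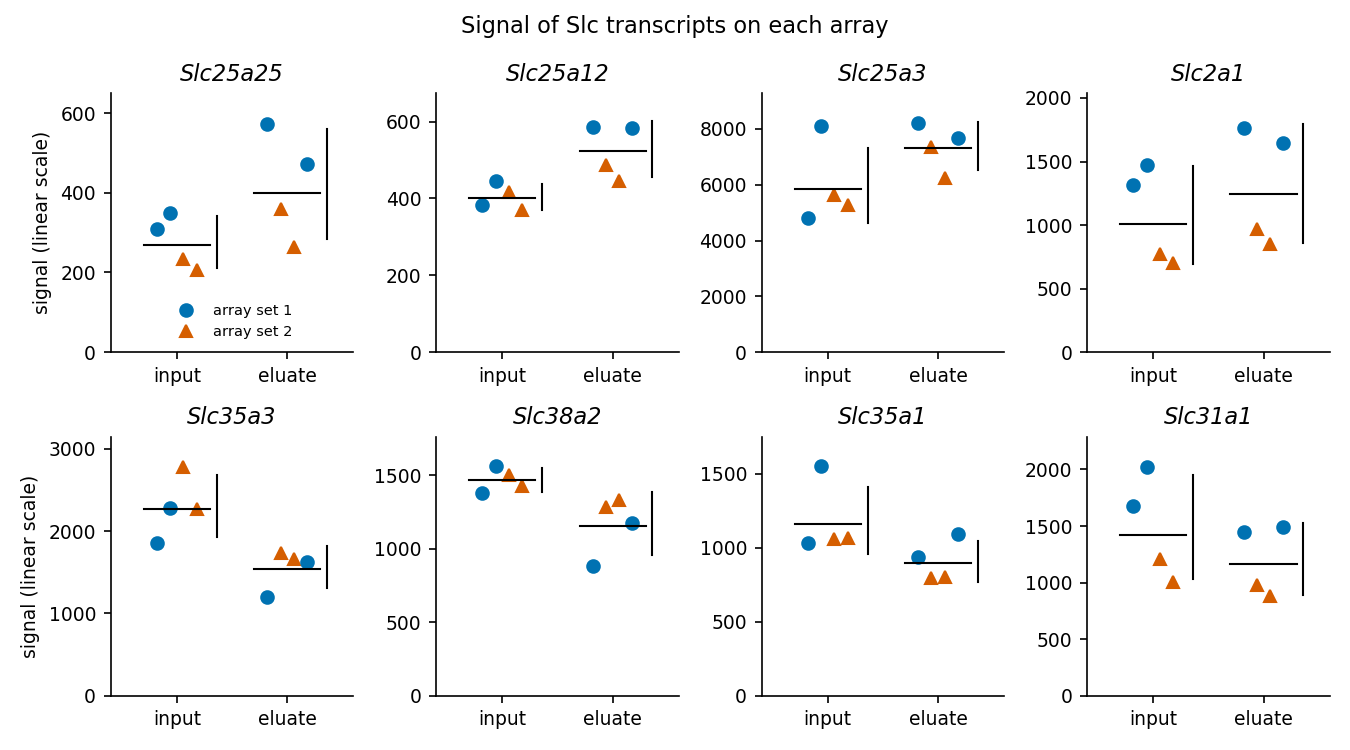
Signal (linear scale, separate axis per gene) of 8 Slc transcripts on each of the 8 arrays, by fraction, with symbols for the array sets. Horizontal lines are means of the log2 values taken back to the linear scale, and vertical lines span 1 SD of the log2 values to either side. The fractions do not overlap for Slc25a12, Slc35a3 and Slc38a2, and for Slc2a1 and Slc31a1 the array sets lie further apart than the fractions.

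The metal transporters held 25 probesets with a median of -0.047, of which 0 were higher and 3 (12%) lower with the array set as the block, against 14.4% and 15.2% of all tested probesets. The high-affinity copper importer Slc31a1 measured 1673, 2022, 1207 and 1004 in the inputs and 1450, 982, 881 and 1494 in the eluates, a log2 fold change of -0.28 (SE 0.24). A dimmer probeset of Slc31a1 gave -0.0. The related Slc31a2, at 276, 372, 237 and 244 against 271, 186, 196 and 274, gave -0.28 as well. Both values of -0.28 had a limma adjusted p of 0.0873 with the array set as the block, against 0.804 and 0.758 in the main fit. Ferroportin (Slc40a1) stood at -0.27, with a limma adjusted p of 0.907 in the main fit and 0.124 with the array set as the block, which became 0.187 with arrays centred on their medians. The zinc transporters named here overlapped between fractions. The importer Slc39a6 spanned 2198 to 3606 in the inputs and 2025 to 3772 in the eluates, Slc39a1 1043 to 1850 and 1063 to 1653, the plasma membrane exporter Slc30a1 531 to 657 and 465 to 592, and Slc30a5, which loads zinc into the secretory pathway, 1273 to 1944 and 1253 to 1991. The iron importer Slc11a2 (DMT1) spanned 521 to 805 and 552 to 759.

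In the remaining groups 0 probesets were higher and 4 lower with the array set as the block, where the shares over all tested probesets were 14.4% and 15.2%. These were the lysosomal sialic acid exporter Slc17a5 at -0.27, Slc46a3 at -0.34, Slc10a3 at -0.29 and Slc10a7 at -0.26, with limma adjusted p-values of 0.111, 0.055, 0.0775 and 0.127, against 0.714, 0.739, 0.702 and 0.827 in the main fit. Dimmer probesets of Slc10a7 gave -0.1 and -0.05 and did not pass in either fit. The medians were 0.021 for monocarboxylates, phosphate and sulfate (9 probesets) and -0.049 for organic ions, peptides and vitamins (14). They were 0.051 for nucleosides (6), 0.016 for lipids and choline (12) and 0.096 for the families left ungrouped (4). In the same order the share lower with the array set as the block was 11.1%, 7.14%, 0%, 16.7% and 0%. The sodium-phosphate cotransporter Slc20a1 spanned 305 to 511 in the inputs and 358 to 403 in the eluates, the choline transporter Slc44a2 2251 to 3327 and 2372 to 3217, the thiamine transporter Slc19a2 2649 to 3459 and 2354 to 3065, and the nucleoside transporter Slc29a1 (ENT1) 460 to 665 and 479 to 634. The heme transporter Slc48a1 spanned 3457 to 4920 and 3709 to 4228. Fractions overlapped for each of these 5.

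Differences between the array sets were larger than those between the fractions for most Slc transcripts. The median absolute difference was 0.319 on the log2 scale between the sets and 0.093 between the fractions, against 0.241 and 0.152 for all tested probesets, and the set difference was the larger in 123 of 155 Slc probesets (79.4%, against 64.6% of all). A set difference of at least 2-fold was measured for 8 of the 155, or 5.16%, against 3.7% of all tested probesets. The sets were found from these arrays, so these values are descriptions with no test.

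The 8 transcripts furthest apart were 4 in each direction, and they were named after their values were seen apart from Slc7a11, Slc1a5 and Slc29a3. Slc52a3, a riboflavin transporter, measured 1184 to 1362 in array set 1 and 222 to 299 in array set 2, a 5.06-fold difference. Slc40a1, Slc41a2, a magnesium transporter, and Slc29a3, a lysosomal nucleoside transporter, were also higher in set 1, by 2.10-, 2.06- and 2.04-fold. Higher in set 2 were 4 transcripts of the amino acid group, whose 25 probesets had a median set difference of -0.109 and included the brighter Slc6a6 probeset at 0.95 the other way. Slc7a11, the cystine-glutamate exchanger, measured 168 to 242 in set 1 and 520 to 670 in set 2 (3.07-fold), the glycine transporter Slc6a9 1012 to 1962 and 3745 to 4404 (2.87-fold), Slc1a5 705 to 992 and 1698 to 2254 (2.39-fold), and the betaine transporter Slc6a12 109 to 161 and 281 to 348 (2.33-fold).

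Each of these set differences was present in both fractions, with Slc7a11 at -1.71 in the inputs and -1.53 among the eluates and Slc52a3 at 2.40 and 2.27. The eluate-input difference was -0.18 for Slc7a11, -0.08 for Slc52a3 and, the furthest from zero among the 8, -0.27 for Slc40a1. Of 6 marker lists of other cells, 4 did not overlap between the sets. The summed signal of the mesangium and fibroblast list (Acta2, Col1a1 and Pdgfrb passed) was 11686 to 17841 in set 1 and 3354 to 4175 in set 2, and that of Aqp1, Lrp2 and the other non-transporter tubule genes 11866 to 13845 and 2660 to 3008. A single gene made up most of each sum, Acta2 (2661 to 15566 over the arrays) and Aqp1 (2081 to 12405), while Des, Col3a1, Umod, Aqp2 and Cubn did not pass the filter. The 15 tubule transporters summed to 1232 to 1358 in set 1 and 986 to 1213 in set 2, and the red blood cell list to 226 to 253 and 162 to 184. Both sums lay near background, with only Slc6a19 and Hba-a1 past the filter. Array medians over all probesets were 74.5 to 84.6 in set 1 and 64.9 to 76.4 in set 2. The endothelium list, at 495 to 616 and 430 to 526, and the leukocyte list, at 130 to 152 and 110 to 139, overlapped between the sets. All extracts came from the MPC-5 line, and which cells the marker transcripts came from was not tested. The part of these lists in the set differences was not tested. Cell numbers and RNA per cell cannot be told apart in these extracts.

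**Figure D5:**
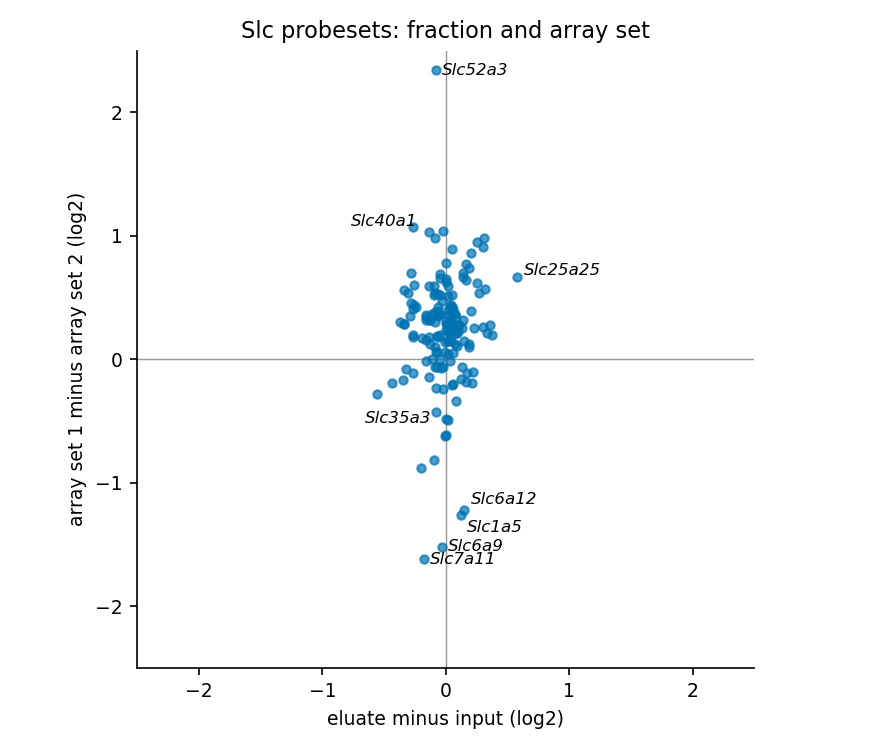
Difference between fractions (eluate minus input, horizontal, log2) and between array sets (set 1 minus set 2, vertical, log2) for each of the 155 Slc probesets, on equal scales. The points spread further along the vertical axis, from -1.62 for Slc7a11 to 2.34 for Slc52a3, than along the horizontal axis, from -0.56 for Slc35a3 to 0.58 for Slc25a25.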

How the data were processed

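MPC-5 podocyte RNA from 4 inputs and 4 eluates was measured on 8 arrays. The authors deposited log2 signal values. BeadStudio and Partek 6.4 are the tools in the submitters' processing notes, and the normalization was not given in the sources used here. Other deposited tables hold 24 columns that match no sample label and were not used, and columns holding the authors' fold changes and p-values were not read. Gene symbols came from the platform annotation and were updated by Entrez ID. All 557 Slc probesets matched.

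The 13902 probesets that reached a signal of 100 on 3 or all 4 eluates were fitted on fraction and replicate number, since the study's methods use pairs of a pulldown and its input, with lmFit and eBayes of limma 3.58.1 (R 4.3.3). Benjamini-Hochberg adjustment ran over all 13902, and adjusted p-values were read at 0.15. Correlations of deviations between same-numbered arrays were 0.4735, -0.6625, 0.7367 and -0.7649 for replicates 1 to 4, so the numbers did not pair the arrays throughout. The fits with the array set as the block use sets read from the data. The number of arrays limits the precision, and signals near 100 on the linear scale lie close to background. Tables and figures used Python 3.11.15 with numpy 2.4.6, pandas 2.3.3 and matplotlib 3.10.9.

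For a gene with several probesets, the values are those of its brightest by mean log2 signal unless another is named. Named are the 8 largest differences in each direction, the 3 genes of each functional group with the highest input signal, a fixed list of well-known transporters, genes whose probesets differ by at least 0.5, tubule transporters and members at the edge of the filter. Others that passed with the array set as the block (Slc10a7, Slc25a10, Slc25a15, Slc25a36 and Slc38a9), and Slc35a2, were named after their values were seen. The members and lists were chosen with earlier results of these data known. Alternatives covered the block, normalization, filter, cutoff and each replicate left out.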

Additional observations from a re-analysis of the deposited data

Results flagged for a closer look

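In 5 of 112 groups of 4 arrays (56 named genes, inputs and eluates separately), the highest or lowest array stood apart from the other 3 by a gap above Dixon's 95% critical share of the range. Chance gives about 1 in 20 such groups. Slc30a5 measured 1991 in eluate 4 and 1253 to 1329 in the other eluates. Slc35a1 measured 1550 in input 2 and 1033 to 1064 in the other inputs. The anion exchanger Slc4a3 measured 118 in input 4 and 169 to 180 in the others. Slc50a1, a sugar transporter of the SWEET family, measured 489 in eluate 4 and 569 to 570 in the others. Slc6a19 measured 114 in input 4 and 139 to 142 in the others. The cause was not tested.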

How the results depend on the processing

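The median log2 fold change of the Slc probesets, -0.002, ran from -0.133 without replicate 4 to 0.095 without replicate 2. The number of calls moved from the 0 higher and 0 lower of the fit with the replicate block. Without a replicate block there were 0 higher and 2 lower, with quantile normalization 1 and 1, with the array set as the block 11 and 19, and with the data-chosen pairs as the replicate block 17 and 21. The pairs were chosen by how arrays deviated together, so they are no independent design. Median-centred arrays, the other signal filters, no filter, the cutoff of 0.05 and the platform's own symbols left both counts at 0.

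Leaving out replicates 1 to 4 in turn gave 0 to 1 higher and 0 to 7 lower. The 7 came without replicate 4, where the median of all tested probesets moved to -0.126 and that of the Slc probesets to -0.133, and the 1 without replicate 2. These alternatives were chosen after seeing the data: with the array set as the block, quantile normalization gave 17 higher and 26 lower, median-centring 14 and 16, and the filter on the inputs 11 and 20. With the array set as the block and each array left out in turn there were 2 to 13 higher and 5 to 23 lower. The higher and lower counts were 8 and 23 without input 1, 13 and 7 without input 2, 12 and 5 without input 3, 3 and 13 without input 4, 11 and 7 without eluate 1, 2 and 12 without eluate 2, 11 and 11 without eluate 3, and 9 and 20 without eluate 4. Array set 1 alone gave 1 and 1, and array set 2 alone 7 and 10. The cause was not tested. Of 56 named genes, 24 kept the same sign in every alternative. Among those past the cutoff with the array set as the block, Slc2a1, Slc4a8 and Slc6a6 changed sign without replicate 4, at -0.01, -0.07 and -0.12 with the replicate block. Median-centring with the array set as the block ended 3 of the 30 calls (Slc25a30, Slc25a36 and Slc40a1).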
